A study of Mus musculus with 15 samples.

Results

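The creatine and calcium futile cycle genes are 10 genes taken by name for their roles, out of 18804 genes in the count table. They are Slc6a8, Gatm, Gamt, Ckb, Ckmt1 and Ckmt2 for creatine, and Atp2a2, Atp2a3, Atp2b1 and Itpr1 for calcium. All 10 had a row of counts, and 9 of them were among the 14293 genes with enough counts to be tested. Ckmt2 was not, with 2 counts in 1 library and 0 in the other 14.

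The counts came from RNA sequencing of white adipocytes differentiated in culture from mesenchymal stem cells (MSCs) of C57BL/6J mice, which had been isolated from the ears. In all groups adipogenesis was induced with methylisobutylxanthine, dexamethasone, insulin and, per the labels, troglitazone, and cells were harvested 16 days after differentiation. The day 0 group stayed at 37°C, cells of the day 1 group went to 31°C on day 15 and those of the day 12 group on day 4, with 5 libraries in each of the 3 groups. The day 12 cells therefore met the lower temperature earlier in differentiation as well as for longer, and these cannot be told apart. Separate mice or cultures are not named for the replicates, so p-values measure the spread between these libraries, which may be technical. Levels of mRNA were measured, not protein, enzyme activity or ion flux.

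Libraries held 64648178 to 133270973 counts. All 8 adipocyte markers were measured well above the filter, with summed levels of 4390 to 5010 CPM (counts scaled to a common library size with TMM factors) at day 0, 5320 to 5900 CPM at day 1 and 4690 to 5260 CPM at day 12. The sum hides members that went opposite ways: at day 12 against day 0, Fabp4 was called higher (1.95-fold) while Adipoq (2.36-fold), Cidec (3-fold) and Pparg (1.51-fold) were called lower, and Cidec was 6.13-fold lower at day 1. Of the 5 brown and beige fat markers, Ucp1 and Cox8b had at most 10 counts in every library. Cidea had at most 16 counts, with means of 0.0557, 0.15 and 0.0212 CPM at days 0, 1 and 12, and Elovl3 had at most 14. Ppargc1a is given below. A gene is called higher or lower when its adjusted p from edgeR's quasi-likelihood test is under 0.05 and its fold change is over 1.5, which is 0.585 on the log2 scale. In a bulk sample, fewer cells of a type and less RNA per cell cannot be told apart.

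A futile cycle runs a reaction and its reverse so that ATP is spent without net work and the energy leaves as heat. In the creatine cycle, creatine kinase moves phosphate from ATP to creatine and a phosphatase removes it again, so that the cycle can repeat. The cell takes creatine up through a transporter or makes it in 2 steps from arginine and glycine. In the calcium cycle, the SERCA pumps use ATP to load calcium into the endoplasmic reticulum (ER) and the calcium leaks back through release channels. Both cycles are known from brown and beige fat as heat sources that do not need UCP1.

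Of the 10 genes, 7 had a promoter window in the RefSeq table for GRCm38.p6, with 9 windows in all. The windows of Gatm, Gamt, Ckmt1 and Atp2a3 are shown because the results turn on their calls, and that of Ckb because it carried most of the creatine kinase mRNA. Each is the 250 bases before an annotated start, written 5′ to 3′ on the gene's own strand. Capitals mark matches, on either strand, to the TATA box (TATAAA), the CCAAT box (CCAAT), the GC box (GGGCGG), the core of the hypoxia response element (ACGTG) and the half-site of estrogen-related receptors (AAGGTCA). Neighbouring copies of the GC box may overlap, and no other pair of motifs overlapped in the windows shown.

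Gatm, chr2:122611278-122611527, minus strand: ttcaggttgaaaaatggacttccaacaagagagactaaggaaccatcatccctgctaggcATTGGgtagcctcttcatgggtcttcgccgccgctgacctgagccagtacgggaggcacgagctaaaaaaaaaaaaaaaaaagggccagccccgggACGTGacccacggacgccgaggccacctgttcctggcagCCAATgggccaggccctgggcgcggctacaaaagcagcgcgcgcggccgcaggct

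Gamt, chr10:80261013-80261262, minus strand: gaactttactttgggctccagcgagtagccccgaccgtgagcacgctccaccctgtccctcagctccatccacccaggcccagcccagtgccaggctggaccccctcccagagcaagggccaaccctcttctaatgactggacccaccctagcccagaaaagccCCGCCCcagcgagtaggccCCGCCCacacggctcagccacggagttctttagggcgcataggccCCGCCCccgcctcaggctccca

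Ckmt1 first start, chr2:121357526-121357775, plus strand: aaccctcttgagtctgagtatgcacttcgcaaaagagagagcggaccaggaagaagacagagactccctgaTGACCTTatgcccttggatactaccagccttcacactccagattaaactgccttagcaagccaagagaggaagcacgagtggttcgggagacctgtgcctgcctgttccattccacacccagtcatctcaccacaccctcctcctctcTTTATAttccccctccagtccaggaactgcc

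Ckmt1 second start, chr2:121358360-121358609, plus strand: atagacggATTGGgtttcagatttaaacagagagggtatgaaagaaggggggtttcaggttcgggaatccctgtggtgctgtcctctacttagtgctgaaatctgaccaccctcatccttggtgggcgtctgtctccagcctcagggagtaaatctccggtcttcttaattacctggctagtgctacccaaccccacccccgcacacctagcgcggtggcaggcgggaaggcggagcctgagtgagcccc

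Atp2a3, chr11:72960919-72961168, plus strand: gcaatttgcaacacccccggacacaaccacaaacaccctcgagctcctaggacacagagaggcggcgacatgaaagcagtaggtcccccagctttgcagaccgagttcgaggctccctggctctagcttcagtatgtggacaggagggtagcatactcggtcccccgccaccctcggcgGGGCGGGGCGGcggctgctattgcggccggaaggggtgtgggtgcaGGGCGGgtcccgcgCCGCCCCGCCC

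Ckb, chr12:111672339-111672588, minus strand: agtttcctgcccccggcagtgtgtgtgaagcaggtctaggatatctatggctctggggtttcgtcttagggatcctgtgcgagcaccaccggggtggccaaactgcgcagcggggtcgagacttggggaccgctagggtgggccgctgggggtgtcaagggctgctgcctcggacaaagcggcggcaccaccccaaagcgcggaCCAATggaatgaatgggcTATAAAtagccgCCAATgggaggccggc

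The windows of the genes for creatine synthesis had no motif in common. Gatm held 2 CCAAT boxes and 1 hypoxia core, and Gamt held 3 GC boxes. The first Ckmt1 window held 1 TATA box and 1 estrogen-related receptor half-site, and the second held 1 CCAAT box. Atp2a3 held 5 GC boxes, with 66.8% of its bases G or C, and Ckb held 1 TATA box and 2 CCAAT boxes. Of the 32851 windows in the table, 12.4% hold a TATA box, 33.8% a CCAAT box, 32.7% a GC box, 16.6% a hypoxia core and 4.08% the half-site, and the median share of G and C is 52.4%. These are matches of letters only, and they say nothing of which factor was bound.

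Over the 9 genes tested, 0 rose and 1 fell at day 1 against day 0, where 7.71% of all genes tested were called higher and 13.4% lower. At day 12 against day 0, 1 rose and 2 fell, against 13% and 16.2% of all genes. Between day 1 and day 12, 2 rose and 3 fell, against 10.6% and 8.53%. With no limit on the fold change, 7, 9 and 7 of the 9 genes passed the adjusted p in the same comparisons, beside 71.5%, 76.6% and 67.2% of all genes, so that a small p alone was the usual case in these libraries. The comparisons share their day 0 or day 1 libraries. Changes beyond 1.5-fold were in Gatm and Gamt, which make creatine, in the transporter Slc6a8, in the mitochondrial kinase Ckmt1 and in the pump Atp2a3. The abundant pump Atp2a2 and the abundant kinase Ckb were not called in any of the 3.

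Signs at day 12 rest on how the libraries are scaled. Libraries were scaled by TMM, which leaves the median of all genes at 0.01 on the log2 scale, with 55.6% of the called genes lower than at day 0. With total counts alone that median was 0.205 and 35.9% of the called genes were lower. The qPCR reference genes that had a row were Hprt, Tbp, Gapdh and B2m. With scaling on these 4 genes that median was 0.851 with 6.21% lower, and B2m itself differed by -2.12 at day 12 under TMM. Against day 1 the medians were 0.182 and 0.799, with 27.3% and 2.44% lower in place of 44.7%. Values below are relative to the TMM median, and for each of the 10 genes those with total counts alone and with the 4 reference genes are given where they alter a sign or a call.

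**Figure D1:**
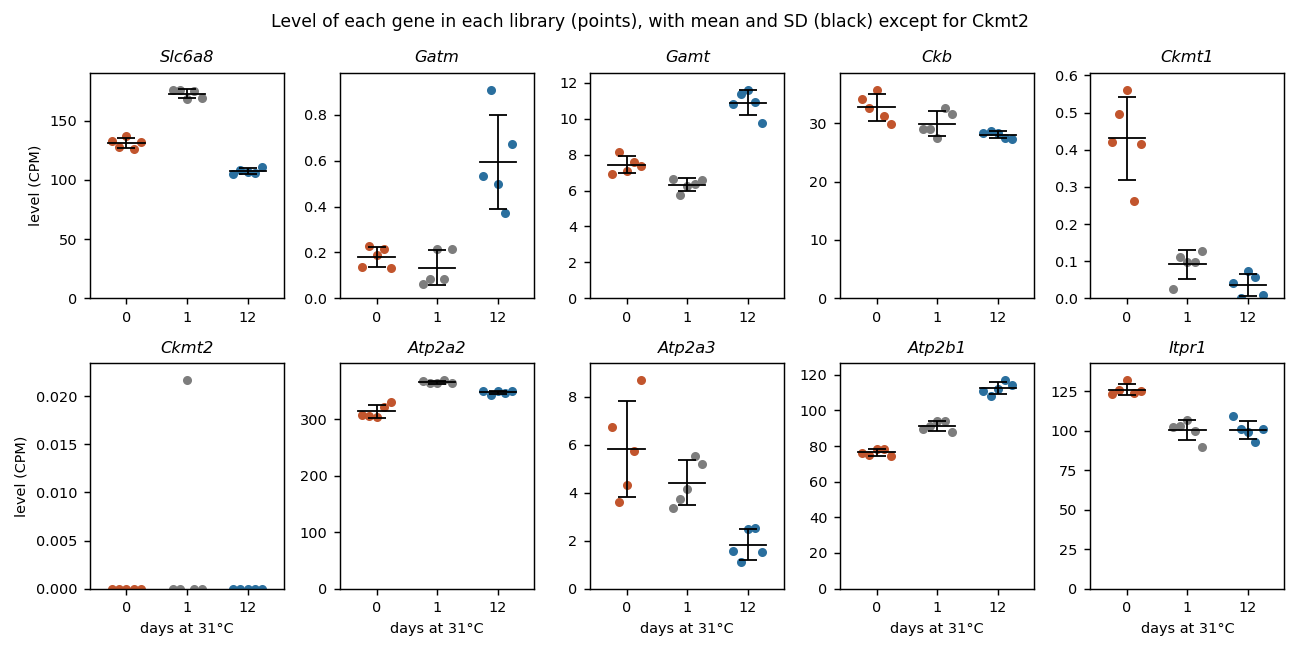
Level of each of the 10 genes in CPM (y axis, linear from 0, a scale of its own in each panel) in the 15 libraries by days at 31°C (x axis); points are libraries, and black lines are the mean and SD of 5 libraries, left out for Ckmt2. With TMM scaling, Slc6a8 is highest at day 1 and lowest at day 12, Gatm and Gamt are highest at day 12, Ckmt1 and Atp2a3 are lowest at day 12, and Ckb and Atp2a2 stay between 27.3 and 35.7 CPM and between 304 and 369 CPM.

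Slc6a8, on chromosome X from 73673150 to 73682502, encodes the transporter that brings creatine into the cell with sodium and chloride. Its level at day 0 was 133, 128, 137, 126 and 132 CPM in replicates 1 to 5. At day 1 it was 176, 176, 168, 175 and 169 CPM, and at day 12 it was 105, 108, 107, 106 and 111 CPM. All day 1 libraries lay above all day 0 libraries, and all day 12 libraries lay below both, with no overlap between the groups. Against day 0 the log2 fold change was 0.40 ± 0.028 (SE, adjusted p = 4.76e-12) after 1 day. After 12 days it was -0.29 ± 0.028 (adjusted p = 1.31e-09), and both were under the fold limit. From day 1 to day 12 the transporter fell by 0.68 ± 0.028 on the log2 scale, 1.61-fold (adjusted p = 2.42e-16). The place of day 12 in this order depends on the scaling. With the reference genes its difference from day 0 was 0.55, the same direction as at day 1, and it was 0.12 without B2m among them. The difference from day 1 was -0.51 with total counts alone, under the limit, and 0.11 with the reference genes, the other direction.

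Creatine is made by Gatm, which transfers an amidino group from arginine to glycine in mitochondria, and Gamt, which then methylates the product. Gatm lies on chromosome 2 from 122594467 to 122611303 and had few counts, 5 to 72 per library. Its level was 0.135, 0.226, 0.187, 0.216 and 0.131 CPM at day 0, and 0.064, 0.0833, 0.217, 0.0837 and 0.215 CPM at day 1. At day 12 it was 0.531, 0.908, 0.498, 0.371 and 0.672 CPM. The lowest day 12 library lay above every library of the other groups, whose ranges overlapped each other. Gatm rose at day 12 against day 0 by 1.74 ± 0.34 on the log2 scale, 3.34-fold with a 95% interval of 1.04 to 2.44 in log2 (adjusted p = 5.7e-05). Against day 1 it rose by 2.10 ± 0.36, 4.30-fold (adjusted p = 1.38e-05). At day 1 against day 0 the difference was -0.36 ± 0.39 (adjusted p = 0.41), an interval from -1.16 to 0.44.

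Gamt, on chromosome 10 from 80258151 to 80261012, was measured with 413 to 1073 counts per library. Its level was 6.93, 8.14, 7.10, 7.59 and 7.35 CPM at day 0, and 6.65, 5.74, 6.25, 6.37 and 6.58 CPM at day 1. At day 12 it was 10.8, 11.4, 11.6, 10.9 and 9.76 CPM. The 3 groups did not overlap, with day 1 lowest and day 12 highest. Gamt rose by 0.78 ± 0.064 on the log2 scale from day 1 to day 12, 1.72-fold (adjusted p = 1.08e-10). Its difference from day 0 was -0.23 ± 0.064 after 1 day (adjusted p = 0.00278) and 0.55 ± 0.062 after 12 days (adjusted p = 1.89e-08), which is 1.47-fold and just under the limit. That it was not called at day 12 depends on the scaling: it passed the limit with total counts alone (0.75) and with the reference genes (1.39, or 0.96 without B2m). It also passed without day 0 replicate 2, without day 12 replicate 5 and with only the libraries of the larger of the 2 series of numbers in the labels, each at 0.59. Markers of other cell types were also higher in the day 12 libraries. The 3 mesothelial markers summed to 22 to 36.7 CPM at day 12 against 0.295 to 1.12 CPM in the other groups, with Upk3b and Wt1 at no more than 10 counts in every library. The 3 endothelial markers summed to 0.858 to 1.37 CPM at day 12 against 0.179 to 0.694 CPM in the other groups, with Cdh5 at no more than 10 counts. Snap25, a neural marker, was called higher at day 12 against both, with log2 differences of 2.70 ± 0.40 from day 0 and 3.04 ± 0.42 from day 1. Their part in the values of Gatm and Gamt was not tested.

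The creatine kinases differ by place. Ckb encodes the cytosolic brain-type enzyme, Ckm the cytosolic muscle-type one, and Ckmt1 and Ckmt2 the ubiquitous and sarcomeric enzymes of mitochondria. Ckb, on chromosome 12 from 111669361 to 111672338, was at 34.1, 32.6, 35.7, 31.3 and 29.8 CPM at day 0. At day 1 it was at 29, 29, 27.5, 32.6 and 31.6 CPM, and at day 12 at 28.4, 28.7, 28.3, 27.4 and 27.3 CPM. The day 1 range overlapped the other groups, and the day 12 libraries lay just below the lowest day 0 library. The log2 differences from day 0 were -0.13 ± 0.047 (adjusted p = 0.0175) at day 1 and -0.22 ± 0.047 (adjusted p = 0.000149) at day 12. Their 95% intervals, -0.23 to -0.03 and -0.32 to -0.13, lay within the 1.5-fold limit. From day 1 to day 12 the difference was -0.10 ± 0.048 (adjusted p = 0.0809). With the reference genes the day 12 differences turned to 0.61 from day 0 and 0.69 from day 1, past the limit, and with total counts alone the latter was 0.077.

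Ckmt1, on chromosome 2 from 121357714 to 121363737, was a rare transcript. Its counts were 53, 46, 57, 23 and 38 at day 0, which is 0.42, 0.495, 0.561, 0.262 and 0.415 CPM. At day 1 they were 2, 8, 9, 7 and 13, and at day 12 they were 4, 0, 6, 4 and 1, which is 0.0256 to 0.127 CPM and 0 to 0.0729 CPM. Every day 0 library lay above every library at 31°C, and the day 1 and day 12 ranges overlapped. Ckmt1 fell by 2.2 ± 0.41 on the log2 scale at day 1, 4.58-fold (adjusted p = 3.83e-05), and at day 12 it fell by 3.56 ± 0.48, 11.8-fold (adjusted p = 3.05e-07). Among all genes tested, 1.2% differed as much or more at day 1 and 0.588% at day 12. Ckmt1 passed the filter on low counts through its day 0 counts. With only days 1 and 12 in the fit it was not tested. From day 1 to day 12 it fell by 1.37 ± 0.58 (adjusted p = 0.0397), a call that was lost in 14 of 26 alternatives. Among these were the fits without day 1 replicate 2, 3, 4 or 5 and without day 12 replicate 1, 2 or 5, with adjusted p-values from 0.0566 to 0.105, and the fit with the replicate number as a block (-1.36, adjusted p = 0.0568). It was also lost with total counts alone (-1.20, adjusted p = 0.066) and with the reference genes (-0.60, adjusted p = 0.334).

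Ckmt2, on chromosome 13 from 91853387 to 91876885, had 2 counts in day 1 replicate 3 and none elsewhere. At 3 counts, the limit that a count of 0 leaves, its level would be 0.0238 CPM in the library with the largest scaled size and 0.0428 CPM in the smallest, for counting error only. Ckm was likewise near 0, with at most 4 counts in a day 0 library and 0 at day 1 and day 12. Of the 7 markers of skeletal and cardiac muscle, Ckm, Myh1 and Myh2 had at most 10 counts in every library. The list summed to 1.78 to 2.40 CPM at day 0, 1.48 to 2.50 CPM at day 1 and 0.548 to 0.959 CPM at day 12. The sum was lower at day 12 than in any other library, as Ckmt1 was lower there than at day 0, while at day 1 it overlapped day 0 and Ckmt1 did not. Its part in the values of Ckmt1 was not tested.

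Atp2a2, on chromosome 5 from 122453513 to 122502225, encodes SERCA2, the pump that fills the ER with calcium in most cells. Its 2a and 2b forms, which come from alternative splicing, are counted together here. The level was 308, 306, 304, 322 and 330 CPM at day 0, 368, 363, 363, 369 and 364 CPM at day 1, and 349, 343, 349, 347 and 349 CPM at day 12. The groups did not overlap, with day 0 lowest and day 1 highest. The log2 difference was 0.22 ± 0.025 after 1 day (adjusted p = 3.65e-08) and 0.15 ± 0.025 after 12 days (adjusted p = 1.43e-05), 1.16-fold and 1.11-fold. From day 1 to day 12 it was -0.07 ± 0.025 (adjusted p = 0.0128). None of the 3 was called, and 61%, 77.1% and 83.4% of all genes tested differed as much or more. With the reference genes the day 12 value was 0.98 from day 0 and 0.72 from day 1, past the limit, and the latter was 0.10 with total counts alone. Up to 1.36% of the gene's exon bases overlap a gene on the opposite strand.

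Atp2a3 encodes SERCA3, a pump known mainly from blood cells, endothelium and epithelia, and lies on chromosome 11 from 72961169 to 72993044. Its level was 6.74, 3.61, 4.34, 5.76 and 8.70 CPM at day 0, and 3.38, 3.74, 4.16, 5.55 and 5.21 CPM at day 1. At day 12 it was 1.56, 1.11, 2.48, 2.52 and 1.51 CPM. Every day 12 library lay below all others, while days 0 and 1 overlapped. Libraries of a group spread more widely than for any other gene of the set above 1 CPM, with an SD of 2.02 CPM around a mean of 5.83 CPM at day 0. Atp2a3 fell by 1.68 ± 0.22 on the log2 scale at day 12 against day 0, 3.2-fold (adjusted p = 1.9e-07), and by 1.28 ± 0.22 against day 1, 2.42-fold (adjusted p = 1.94e-05). With the reference genes the latter was -0.50, under the limit. At day 1 against day 0 the difference was -0.40 ± 0.20 (adjusted p = 0.0767), an interval from -0.82 to 0.01. It rested on single libraries. By the same edgeR test it was -0.53 without day 0 replicate 2 (adjusted p = 0.0162) and -0.22 without day 0 replicate 5 (adjusted p = 0.322).

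Since SERCA3 is made by blood and endothelial cells, their markers were read in the same libraries. Of the 3 immune markers with a row, Ptprc and Cd3e had at most 10 counts in every library, and the list summed to 6.56 to 8.86 CPM at day 0, 9 to 11.9 CPM at day 1 and 4.47 to 5.51 CPM at day 12, nearly all of it Cd68. That sum was lowest at day 12, as Atp2a3 was, but highest at day 1, where Atp2a3 was not. The endothelial sum, given above, was highest at day 12, where Atp2a3 was lowest. The part of such cells in the Atp2a3 values was not tested.

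Atp2b1, on chromosome 10 from 98914406 to 99026143, encodes the plasma membrane calcium pump PMCA1, which moves calcium out of the cell. Its level was 76.1, 75.2, 78.6, 78.1 and 74.3 CPM at day 0, 89.5, 91.4, 94, 94.1 and 87.6 CPM at day 1, and 111, 108, 112, 117 and 114 CPM at day 12. The groups did not overlap, and the order from day 0 through day 1 to day 12 held in every library. The log2 difference from day 0 was 0.26 ± 0.029 after 1 day (adjusted p = 2.39e-08) and 0.56 ± 0.029 after 12 days (adjusted p = 9.2e-15), and from day 1 to day 12 it was 0.30 ± 0.029 (adjusted p = 1.79e-09). At 1.47-fold the day 12 value was just under the limit for a call. It passed the limit with total counts alone (0.75) and with the reference genes (1.40), which also took the difference from day 1 past it (1.09).

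Itpr1, on chromosome 6 from 108213096 to 108551109, encodes the type 1 inositol trisphosphate (IP3) receptor, a channel that lets calcium out of the ER. It was at 123, 126, 132, 124 and 125 CPM at day 0, 102, 103, 107, 100 and 89.9 CPM at day 1, and 109, 101, 99.1, 92.5 and 101 CPM at day 12. All day 0 libraries lay above the other groups, which overlapped. The log2 difference from day 0 was -0.33 ± 0.041 at both times (adjusted p = 1.37e-07 and 1.09e-07), 1.25-fold and under the limit. Day 12 differed from day 1 by 0.00 ± 0.041 (adjusted p = 0.998), with an interval from -0.085 to 0.085. With the reference genes the day 12 difference was 0.51 from day 0 and 0.79 from day 1, the latter past the limit.

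**Figure D2:**
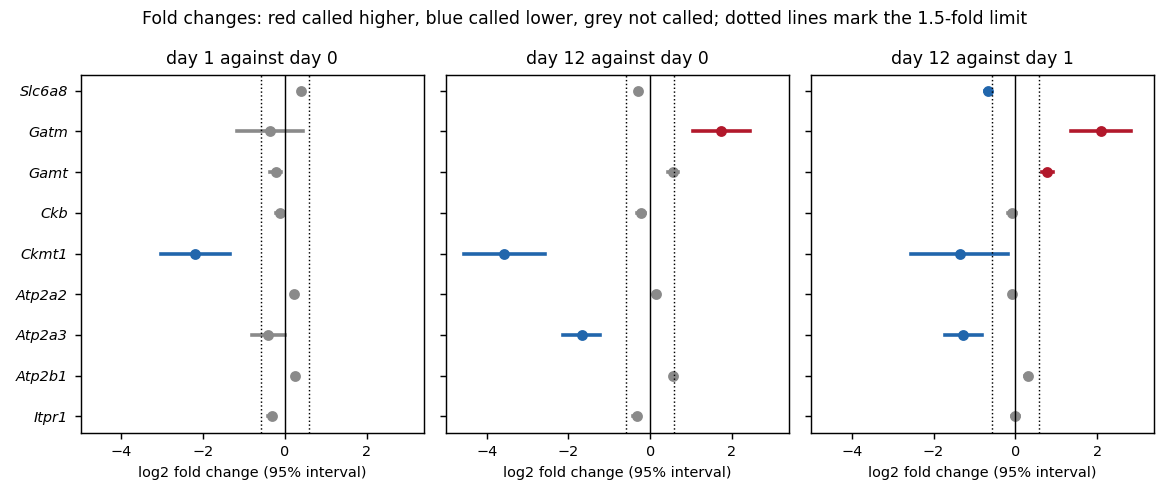
Log2 fold change (x axis) of the 9 genes tested (y axis) in the 3 comparisons (panels), with 95% intervals as bars; red is called higher, blue called lower, grey not called, and dotted lines mark 0.585 on either side. Gatm at 1.74 and Ckmt1 at -3.56 are farthest from 0 in the day 12 panel, and Gamt and Atp2b1 sit just inside the upper dotted line.

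Levels of different genes were compared only per kilobase of exon. At day 0 Atp2a2 was highest at 51.6 CPM per kb, above 94.2% of 12866 genes with a length, and Slc6a8 was next at 25.2 CPM per kb, above 87.7%. Ckb followed at 11.3, Itpr1 at 6.89, Gamt at 5.14 and Atp2b1 at 5.02 CPM per kb. The last 2 did not differ beyond their spread, with SDs of 0.328 and 0.123. Atp2a3 at 1.1, Ckmt1 at 0.172 and Gatm at 0.0596 CPM per kb were the lowest of those tested, above 26.5%, 11.3% and 5.43% of genes. At day 12 Gatm at 0.199 CPM per kb stood above 12.7% of genes and Ckmt1 at 0.0144 CPM per kb above 1.04%. By the longest annotated transcript in place of all exons, Atp2b1 was at 10.7 CPM per kb and Itpr1 at 12.8 at day 0, so the middle of this order depends on the length used.

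Within the pump and kinase families, most of the mRNA came from 1 gene. Atp2a2 made up 97.9% ± 0.642 (SD, n = 5) of the SERCA level per kb at day 0, 98.6% ± 0.275 at day 1 and 99.4% ± 0.217 at day 12. The share of Atp2a3 was 2.07% ± 0.643, 1.37% ± 0.284 and 0.604% ± 0.205, and Atp2a1, the muscle pump, had at most 9 counts in a library. Ckb made up 98.5% ± 0.357, 99.6% ± 0.175 and 99.9% ± 0.127 of the creatine kinase level, and Ckmt1 1.49% ± 0.333, 0.353% ± 0.147 and 0.149% ± 0.127. The summed kinase level per kb was 11.5 ± 0.820 CPM at day 0 and 9.69 ± 0.220 CPM at day 12. Thus the large fold changes of Ckmt1 and Atp2a3 were in minor members of their families.

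The families of plasma membrane pumps and IP3 receptors were more evenly split. Atp2b1 made up 21.1% ± 0.561 of the PMCA level per kb at day 0, 31.6% ± 1.31 at day 1 and 45% ± 1.06 at day 12. Atp2b4, a pump that is not in the set, made up 78.8% ± 0.564, 68.3% ± 1.30 and 55% ± 1.07. The summed PMCA level per kb was 23.8 ± 0.980 CPM at day 0, 19 ± 1.21 CPM at day 1 and 16.4 ± 0.448 CPM at day 12. Itpr1 made up 36.8% ± 0.783, 32.5% ± 0.466 and 25.1% ± 1.73 of the IP3 receptor level, and Itpr3 51.9% ± 0.917, 58.3% ± 0.764 and 67.2% ± 1.92. By the longest transcript, Atp2b1 had 62.5% and Atp2b4 37.4% at day 12, and Itpr1 50.7% and Itpr3 38.7% at day 0, so which gene led depends on the length used, while the direction over the groups did not.

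**Figure D3:**
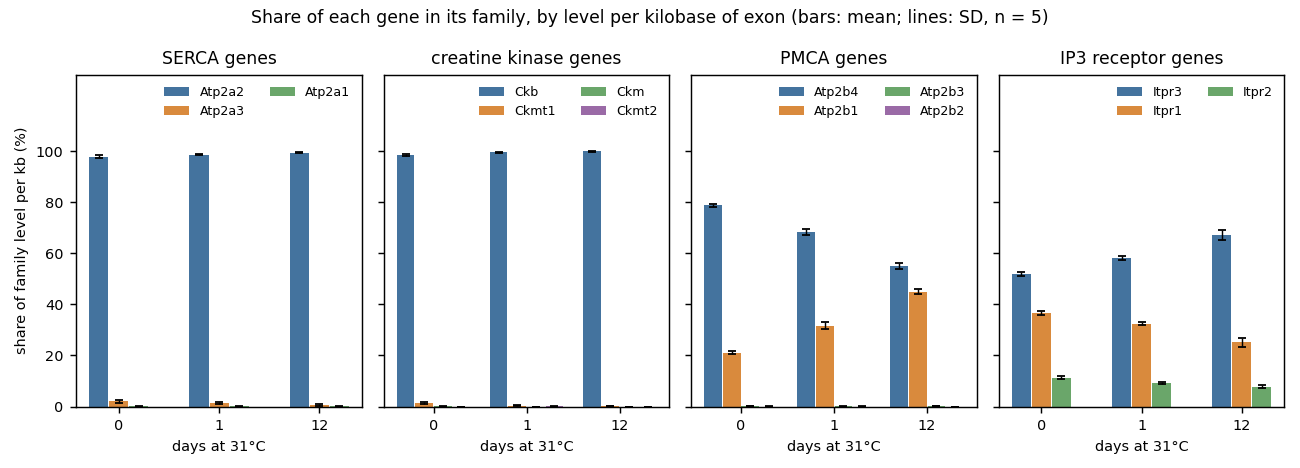
Share of each gene in the summed level per kilobase of its family (y axis, percent) by days at 31°C (x axis), for the SERCA, creatine kinase, PMCA and IP3 receptor genes; bars are means and lines SDs of 5 libraries. Atp2a2 and Ckb hold over 97% of their families in every group, and the share of Atp2b1 goes from 21.1% to 45% while that of Itpr1 goes from 36.8% to 25.1%.

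Other genes of the same pathways were read from 8 lists with 59 genes, of which 53 had a row and 41 were tested. At day 1 against day 0, 3 of the 41 rose and 3 fell, beside 7.71% and 13.4% of all genes tested. At day 12 against day 0, 3 rose and 9 fell, beside 13% and 16.2%. From day 1 to day 12, 0 rose and 6 fell by the same edgeR test, beside 10.6% and 8.53%, and with no limit on the fold change 11 were higher and 17 lower at an adjusted p under 0.05. The median log2 difference over the 41 genes was 0.07, 0.05 and -0.02 in these comparisons, beside -0.01, 0.01 and 0.01 over all genes tested. The balance of these counts depends on the scaling. At day 12 against day 0, 5 were called higher and 5 lower with total counts alone, and 27 and 1 with the reference genes. Against day 1 the counts were 2 and 2, and 28 and 0. The single genes below are given under TMM.

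Of 6 tested partners of creatine cycling, 1 rose and 1 fell at day 12 against day 0. Of all genes tested, 13% were called higher and 16.2% lower. Alpl encodes tissue-nonspecific alkaline phosphatase, an enzyme that can remove phosphate from phosphocreatine. Its mean was 12.5 ± 1.27 CPM (SD, n = 5) at day 0 and 19.3 ± 1.77 CPM at day 1, and it rose by 0.62 ± 0.073 on the log2 scale (adjusted p = 4.85e-08). At day 12 it was at 8.19 ± 0.812 CPM and fell by 0.61 ± 0.076 against day 0 (adjusted p = 1.04e-07). Its groups did not overlap, and their order was that of Slc6a8. Slc25a5, an ADP/ATP carrier of the inner mitochondrial membrane, rose from 126 ± 4.44 CPM to 271 ± 9.63 CPM at day 12, by 1.11 ± 0.031 (adjusted p = 7.66e-20). Slc25a4, the other carrier on the list, was at 240 ± 4.37 CPM and 285 ± 9.91 CPM and was not called.

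Gamt uses the methyl donor S-adenosylmethionine. Tested were 6 genes listed for making it or clearing its product, among them relatives of these enzymes. Mat2b, a regulatory subunit of the enzyme that makes the donor, rose from 52 ± 1.87 CPM to 78.7 ± 1.88 CPM at day 1 (log2 0.60 ± 0.031, adjusted p = 1.55e-14). Ahcyl2, a relative of the enzyme that clears the product, fell from 87.4 ± 3.54 CPM to 50.1 ± 1.46 CPM at day 12 (log2 -0.80 ± 0.033, adjusted p = 1.36e-16). The other 4 genes were not called in any comparison. Of 5 adenylate kinases, which pass phosphate among adenine nucleotides as creatine kinase passes it to creatine, 2 fell at day 12 against day 0. Of all genes tested, 16.2% were called lower there. Ak4, of the mitochondrial matrix, fell from 81.7 ± 5.34 CPM at day 0 to 26 ± 0.818 CPM at day 1 and 23.2 ± 1.53 CPM at day 12, by 1.65 ± 0.045 and 1.82 ± 0.046 on the log2 scale (adjusted p = 1.48e-19 and 9.87e-21). Ak1, of the cytosol, fell from 234 ± 4.47 CPM to 135 ± 8.09 CPM at day 12, by 0.79 ± 0.033 (adjusted p = 1.41e-16).

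Among other calcium pumps and exchangers, 4 of 9 were tested. Atp2b4 fell from 230 ± 10.8 CPM to 111 ± 4.37 CPM at day 12, by 1.05 ± 0.045 on the log2 scale (adjusted p = 2.44e-16). Slc8a3, a sodium and calcium exchanger known from muscle and brain, rose from 1.19 ± 0.318 CPM to 4.34 ± 0.288 CPM at day 1, by 1.87 ± 0.15 (adjusted p = 9.87e-11). It was at 1.89 ± 0.366 CPM at day 12, a range that overlapped day 0 although the gene was called higher there (log2 0.68 ± 0.16, adjusted p = 0.00051). Of the release channels beside Itpr1, Itpr3 rose from 87.7 ± 3.48 CPM to 133 ± 7.33 CPM at day 12 (log2 0.60 ± 0.040, adjusted p = 1.24e-12), and Itpr2 and Ryr1 were not called.

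Of 6 tested genes for calcium binding in the ER or regulation of SERCA, 2 fell at both times against day 0, where 13.4% and 16.2% of all genes were called lower, and none rose. Calr, the ER chaperone calreticulin that holds much of the stored calcium, fell from 1520 ± 25.5 CPM at day 0 to 622 ± 10.1 CPM at day 1 and 826 ± 20.4 CPM at day 12, by 1.29 ± 0.025 and 0.88 ± 0.025 on the log2 scale (adjusted p = 2.1e-22 and 7.58e-20). Canx, the membrane-bound chaperone calnexin, fell from 574 ± 12.8 CPM to 361 ± 9.43 CPM and 373 ± 10.1 CPM, by 0.67 ± 0.027 and 0.62 ± 0.027 (adjusted p = 1.36e-16 and 2.15e-16). Phospholamban (Pln), the SERCA inhibitor of the heart, had at most 4 counts in a library, and Sln, Mrln and Strit1 were not analysed here.

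Store-operated entry refills the ER when its calcium runs low. Of its 6 genes, 2 fell at day 12 against day 0 and 3 fell from day 1, where 16.2% and 8.53% of all genes were called lower. Orai3, a channel subunit, fell from 38.4 ± 1.2 CPM to 24.1 ± 1.60 CPM at day 12 (log2 -0.67 ± 0.041, adjusted p = 2.83e-13). Saraf (listed as Tmem66), which slows the entry, fell from 246 ± 8.47 CPM to 158 ± 1.69 CPM (log2 -0.64 ± 0.027, adjusted p = 1.52e-16). Stim1, the calcium sensor of the ER, was at 84.8 ± 1.62 CPM at day 0, 126 ± 3.93 CPM at day 1 and 81 ± 3.78 CPM at day 12, and fell by 0.64 ± 0.032 from day 1 to day 12 (adjusted p = 7.95e-15). Of 5 tested genes of mitochondrial calcium uptake, none was called in any comparison. In the 3 comparisons 3, 4 and 4 passed the adjusted p of edgeR, beside 71.5%, 76.6% and 67.2% of all genes.

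**Figure D4:**
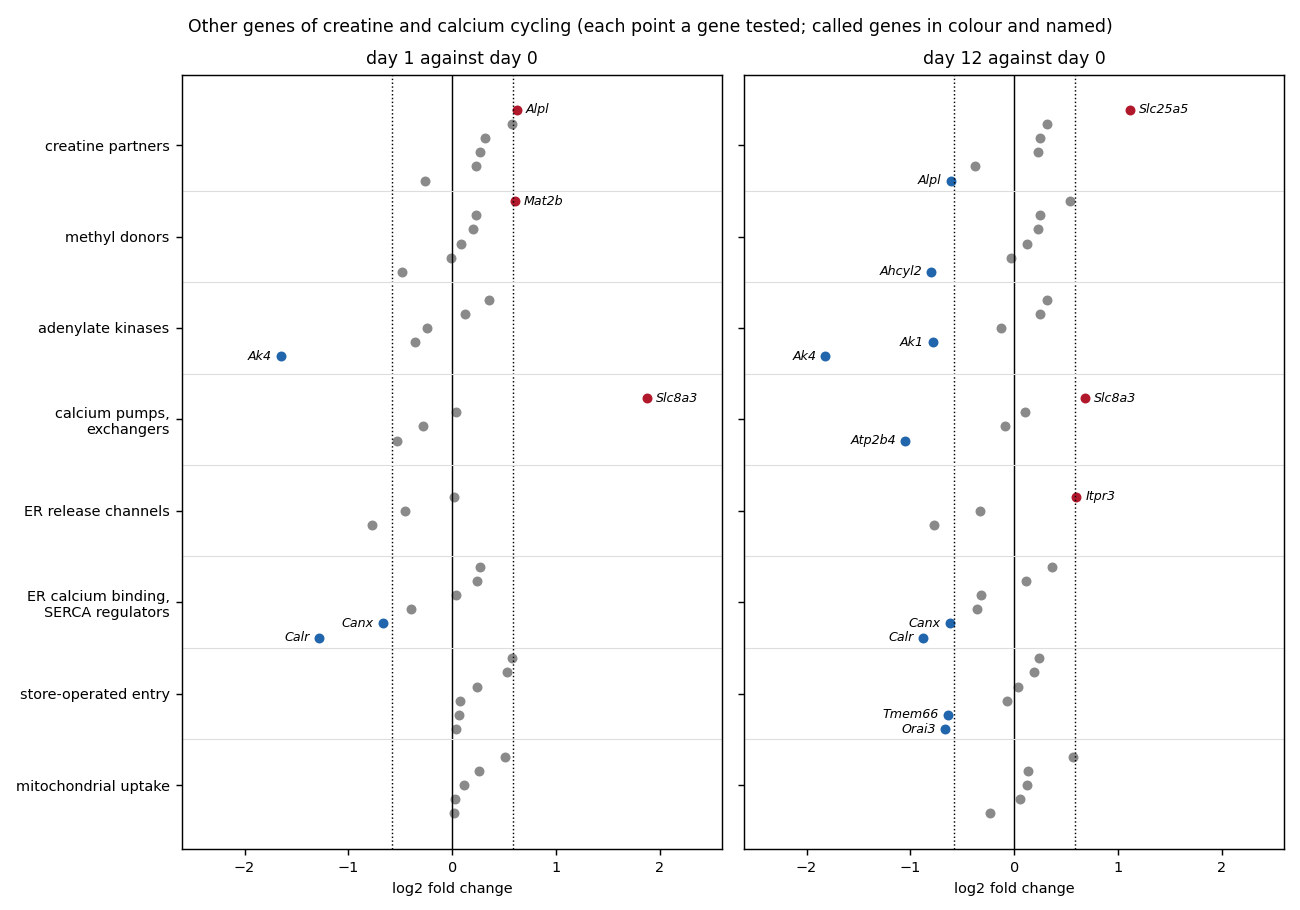
Log2 fold change (x axis) at day 1 and day 12 against day 0 (panels) of the 41 tested genes on the 8 pathway lists (rows), each point a gene; red is called higher, blue called lower, grey not called, and dotted lines mark 0.585 on either side. Slc8a3 at 1.87 and Ak4 at -1.65 are farthest from 0 at day 1, and Ak4 at -1.82 and Slc25a5 at 1.11 at day 12.

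The genes whose log2 CPM followed that of each member most closely over the 15 libraries were listed among 12132 genes, as a description of libraries that share 3 groups and their depths. For Slc6a8 they were Angptl2 (Pearson r = 0.995), Dhrs7 (0.995) and Hmox1 (0.991), all highest at day 1, with Hmox1 at 567, 1110 and 355 CPM on average at days 0, 1 and 12. For Gamt they were Lasp1 and Ywhae (both 0.981) and Hsp90ab1 (0.976), and for Atp2b1 they were Slk (0.992), Mprip (0.992) and AW551984 (0.992). Atp2a3 was followed most closely by Msl3 (0.978), Pde4b (0.952) and Nr4a2 (0.937), Atp2a2 by Tomm22 (0.978), Dnaja2 (0.977) and Wibg (0.974), Itpr1 by Pappa (0.968), Kidins220 (0.963) and Zfp871 (0.963), and Ckb by Agap2 (0.901), Parp6 (0.895) and Hps1 (0.889).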

How the data were processed

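RNA sequencing counts from 15 libraries of cultured mouse adipocytes, 5 each at 0, 1 and 12 days at 31°C, were grouped by their labels. The authors deposited raw read counts by gene from HTSeq, after alignment to mm10 by TopHat2 2.0.13 and Bowtie2 2.2.1. The strand setting was not given in the sources used here, so reads of genes on opposite strands cannot be told apart where exons overlap (5.65% of the exon bases of Ckmt2, 1.58% of Itpr1, 1.36% of Atp2a2 and 0.401% of Ckmt1). The authors also deposited regularized log2 values and tables of their own DESeq2 comparisons (mean scaled counts as a signal, log2 fold change, Wald score and p-value), which were not used.

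The members and the pathway and marker lists were chosen with earlier results of these data known. Genes were filtered with filterByExpr of edgeR 4.0.16 at a minimum count of 10, scaled by TMM and tested with edgeR's quasi-likelihood test in R 4.3.3, all 15 libraries in one fit with no covariate, with Benjamini-Hochberg adjustment over 14293 genes. Standard errors are the size of the log2 fold change over the square root of F, and intervals are 95%. Levels are CPM on TMM-scaled sizes, per kilobase of GENCODE M21 exons (GRCm38, which is mm10) where genes are compared. Depth of 64648178 to 133270973 counts lets a count of 0 hide 3 counts, up to 0.0428 CPM, for counting error only. No pair of replicates agreed within sampling noise. Alternatives covered scaling (total counts, DESeq2 1.42.0 size factors, reference genes), the DESeq2 test, filters, the call rule, the samples in the fit, the replicate block, series of library numbers and leaving out each library. Named were all 10 members, list genes that were called or had few or no counts, and for each member above 1 CPM the 3 genes most correlated with it.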

Additional observations from a re-analysis of the deposited data

Results flagged for a closer look

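For 5 of the 9 genes tested the change at day 12 was called different from that at day 1, both taken against day 0. This is edgeR's test of the difference itself, the comparison of day 12 with day 1, at the 1.5-fold limit. Of all genes, 10.6% were called higher and 8.53% lower in it. With no fold limit 7 of the 9 passed the adjusted p, beside 67.2% of all genes. The difference on the log2 scale was -0.68 for Slc6a8, 0.78 for Gamt, 2.10 for Gatm, -1.37 for Ckmt1 and -1.28 for Atp2a3. Slc6a8 differed from day 0 in opposite directions at the 2 times, with every day 1 library above and every day 12 library below the day 0 libraries, and so did Gamt with the directions exchanged. For Slc6a8 this depends on the scaling, since its day 12 difference from day 0 was 0.55 with reference genes and 0.12 without B2m among them, the direction of day 1. For Gatm and Atp2a3 the day 1 difference from day 0 did not pass the adjusted p while the day 12 difference did. For Atp2a3 this depended on single libraries, with an adjusted p from edgeR of 0.0162 without day 0 replicate 2. For Ckmt1 the day 1 and day 12 differences were both called, and the difference between them was lost in 14 of 26 alternatives. No library stood apart from the others of its group by Dixon's test in the 27 sets of 5 values tested, where chance would mark about 1 in 20.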

How the results depend on the processing

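Of 749 values of single members under the alternatives, 685 kept their direction and their side of the limits, 17 lost a call, 27 gained one and 20 changed sign. The log2 fold changes that changed sign were, with reference genes, Slc6a8 (0.55), Ckb (0.61) and Itpr1 (0.51) at day 12 against day 0 and Slc6a8 (0.11), Ckb (0.69) and Atp2a2 (0.72) against day 1. Without B2m among the reference genes, an alternative chosen after seeing the data, they were 0.12, 0.18 and 0.083 against day 0, and 0.27 for Ckb and 0.29 for Atp2a2 against day 1. With total counts they were 0.077 for Ckb and 0.10 for Atp2a2. Itpr1 at day 12 against day 1, at 0.00, was -0.0076 with DESeq2 size factors, -0.0077 with the DESeq2 test, -0.010 with the number series as covariate, -0.051 in the larger series alone and -0.038 to 0.029 over the fits that leave out 1 library (-0.030 without day 12 replicate 1 and -0.0024 without day 12 replicate 2). Reference genes and total counts shift all genes, by construction; the cause of the other changes was not tested.

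Members called higher at day 12 against day 0, 1 as reported, were 3 with total counts, 5 with reference genes (3 without B2m), 0 at a mean of at least 1 CPM, 4 with no fold limit, 2 in the larger series and 1 to 2 over the fits without 1 library. Members called lower were 0 at day 1 and 1 at day 12 at a mean of at least 1 CPM, where Gatm and Ckmt1 are not tested. With no fold limit 3 were higher and 4 lower at day 1, and 5 lower at day 12. Against day 1, 1 was lower with total counts and without B2m, 6 were higher and 0 lower with reference genes, and 1 was higher at a mean of at least 1 CPM.

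List genes called at day 1 were 5 higher with total counts or either set of reference genes, 19 higher and 11 lower with no fold limit, 5 lower with no filter, 1 higher by glmTreat and 1 to 4 higher without 1 library. At day 12 against day 0 they were 5 higher and 5 lower with total counts, 27 and 1 with reference genes, 14 and 2 without B2m, 19 and 15 with no fold limit, and 1 higher by glmTreat. Against day 1 they were 2 and 2 with total counts, 28 and 0 with reference genes, 5 and 2 without B2m, 11 and 17 with no fold limit, 1 higher at a mean of at least 1 CPM and 0 to 1 higher without 1 library.

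Over all genes, 5049 higher and 5177 lower at day 1, 5608 and 5342 at day 12, and 4908 and 4690 against day 1 passed with no fold limit. By glmTreat 628 and 1206 passed at day 1, and 906 and 759 against day 1. At day 12 against day 0, 2982 were higher with total counts, 9713 higher and 643 lower with reference genes, and 5102 and 1204 without B2m. Against day 1, 10196 and 255 passed with reference genes and 3822 and 596 without B2m.

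Pairing of the libraries by replicate number was weak at most. Deviations of same-numbered libraries correlated between -0.0255 and 0.0436, with a median of 0.0195 beside -0.00179 for different numbers. Still, 10 of 15 libraries correlated best with their own number. The replicate block changed the call of Ckmt1 at day 12 against day 1 (-1.36) and no other member's call. The larger series of library numbers holds 4, 3 and 4 libraries and gave -0.87 for that value (adjusted p = 0.315), and the other series holds 1, 2 and 1, too few for a value. With only the groups compared in the fit, Ckmt1 was not tested between days 12 and 1. Depth limits Ckmt1, Ckmt2 and Gatm, with at most 72 counts in a library. Shares by the longest transcript moved for Atp2b1, Atp2b4, Itpr1, Itpr2, Itpr3, Ckb and Ckmt1.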

Other observations

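Marker lists not given above were also summed. Stromal progenitor markers summed to 1150 to 1230 CPM at day 0, 1210 to 1280 CPM at day 1 and 964 to 995 CPM at day 12. Nearly all of this was Pdgfra and Ly6a, which went opposite ways: Ly6a fell by 1.42 ± 0.039 on the log2 scale at day 12 against day 0 (edgeR, adjusted p = 6.64e-20), and Pdgfra differed by 0.34 ± 0.027 (adjusted p = 4.73e-11), under the fold limit. Dpp4 and Pi16 had at most 12 and 9 counts in a library. Mural and smooth muscle markers summed to 370 to 424, 479 to 639 and 417 to 531 CPM, and cartilage markers to 266 to 325, 264 to 299 and 234 to 297 CPM. The 5 brown and beige fat markers summed to 3.14 to 3.81 CPM at day 0, 2.43 to 3.17 CPM at day 1 and 0.921 to 1.82 CPM at day 12, and Ppargc1a, a coactivator of mitochondrial genes that made up most of that sum, fell by 1.5 ± 0.16 on the log2 scale at day 12 against day 0 (edgeR, adjusted p = 8.94e-09).

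Genes close to 0 in all groups were Ckm, Slc16a12, Atp2a1, Atp2b2, Atp2b3, Atp2c2, Slc8a2, Ryr2, Ryr3, Pln, Casq2 and Hrc, none of which passed the filter on low counts. Mcu, Micu2 and Micu3 were not analysed here.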
